A study of Arabidopsis thaliana with 16 samples.

Results

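The genes described here encode the core of the chloroplast's own RNA polymerase or bear the names of a pair of proteins of its ribosome. They were the chloroplast-encoded rpoA, rpoB, rpoC1, rpoC2, rps14 and rps16. A probe set, the unit of the array, was taken where the array's annotation assigned it to one of these genes and to no other gene. All 6 genes had exactly 1 such probe set, out of 69 assigned to a single chloroplast-encoded gene and 22746 probe sets tested. No filter on low signal was applied, so all 6 entered every test.

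The arrays held total RNA from leaves of Arabidopsis thaliana (line Columbia, ecotype Col-0), in each case the first leaf to be fully expanded, and the labels name no transgene, mutation or chemical treatment in any group. All plants had grown at 22 °C and 60% humidity with a photoperiod of 10 h and light of 350 µmol m-2 s-1. Temperature was then raised by 2 °C every 10 min along a curve from 22 to 42 °C that lasted 3 to 4 h, with 20 to 30 min allowed for photosynthesis to settle before a leaf was taken. Each of 4 states had 4 arrays: a baseline taken at the temperature of growth, the optimum reached by photosynthesis on the way up, and 20% and 30% inhibition, where photosynthesis had dropped by those shares of its optimum. The labels give no leaf temperature for the later 3 states, and how warm a leaf was, how long it had been on the curve and the hour of sampling cannot be told apart. They describe the replicates as leaves of randomly collected plants, and p-values measure the spread between these leaf samples.

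A chloroplast transcribes its genome with polymerases of different origin. The plastid-encoded polymerase resembles the bacterial enzyme: rpoA encodes its alpha subunit, rpoB the beta subunit, rpoC1 the beta-prime subunit and rpoC2 the beta-double-prime subunit, while sigma factors that let it find promoters come from the nucleus. A nuclear-encoded polymerase of the phage type transcribes the rpoB, rpoC1 and rpoC2 genes, which form one transcription unit, and the plastid-encoded enzyme transcribes most photosynthesis genes. rpoA lies at the end of a long cluster of ribosomal protein genes, rps14 is transcribed together with the photosystem I genes psaA and psaB, and rps16, a gene with an intron, lies between matK and psbK. Proteins S14 and S16, after which rps14 and rps16 are named, belong to the small subunit of the bacterial-type plastid ribosome. Whether rps16 of this species yields a working S16 was not examined here. Chloroplast messages largely lack stable poly(A) tails, and a tail added in the chloroplast marks an RNA for decay.

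Signals on the arrays ran from 3.25 to 14.7 on the log2 scale, array medians from 6.07 to 6.19, and arrays of a state correlated at 0.988 to 0.998 across probe sets. Of 5 leaf markers 3 had a named probe set, the enzymes of carbon fixation RCA, PRK and SBPASE, at a mean signal of 13.1 to 13.9. All 3 fell at both inhibited states. Of 11 markers of roots, flowers, phloem and guard cells only 2 had one, the root hair expansin EXPA7 at 4.59 to 4.93 and the guard cell factor FAMA at 6.33 to 6.99. FAMA fell at 20% inhibition (log2 change −0.42, adjusted p = 0.000808). The control probe set for 25S rRNA, another RNA without poly(A), stood apart: it read 5.53 to 6.41 at baseline and optimum, 8.67 to 11.4 at 30% inhibition, and 13.0, 10.4, 5.25 and 12.9 in replicates 1 to 4 of 20% inhibition. The signal of the actin control's 3 prime over its 5 prime probe set, a measure of RNA and labelling quality, was 1.94 to 2.19 log2 units at baseline and 2.17 to 2.59 at the inhibited states. The GAPDH control did not rise, with means of 0.87 at baseline, 0.76 at 20% inhibition and 0.75 at 30%. For the ubiquitin control the means were 1.31, 1.28 and 1.27. The signal of the 5S rRNA control had means of 3.87, 3.91 and 3.85 at the same states. Fits with the 25S control as a covariate are given below, but as it differed by state they cannot separate its part from that of state. The part of the other measures in the results was not tested. Values are relative to the rest of the leaf's RNA, and a smaller share of cells that carry these transcripts cannot be told apart from less of them per cell. Nor can either be told apart from a change in the share of these RNAs with a poly(A) tail, which the labelling favours.

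Against the baseline, signals of the polymerase core genes were lower once photosynthesis was inhibited, that of rps16 was lower in every later state, and that of rps14 alone of the 6 was higher. At 20% inhibition rpoA, rpoB, rpoC1, rpoC2 and rps16 fell and rps14 rose. At 30% inhibition rpoA, rpoC1, rpoC2 and rps16 fell, while rpoB and rps14 did not pass. All changes were smaller than 2-fold. The tests were limma's moderated tests in one model of all 16 arrays, with Benjamini-Hochberg adjustment over 22746 probe sets, and an adjusted p under 0.05 counted as a call.

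The counts stand beside those of the whole array. At the optimum 1 of the 6 was called, lower, against 16.6% of all probe sets in either direction and 8.43% lower. At 20% inhibition 6 of 6 were called against 43.9% of all, 5 of them lower against 24.9% and 1 higher against 18.9%. At 30% inhibition 4 of 6 were called lower against 24.9% lower and 44.3% in either direction. The median log2 change of the 6 was −0.13, −0.51 and −0.50 at the 3 states in turn, beside −0.03, 0.00 and −0.01 over all probe sets. With a threshold of 0.01 the members called were 0 at the optimum and 3 at 20% inhibition, against 9.06% and 34.8% of all, and 1 from the optimum to 20% inhibition, against 29.7%. The arrays of 20% inhibition did not overlap with those of the baseline for 4 of the 6, as for 40.2% of all probe sets, and at 30% inhibition for 4, as for 43.6% of all.

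**Figure D1:**
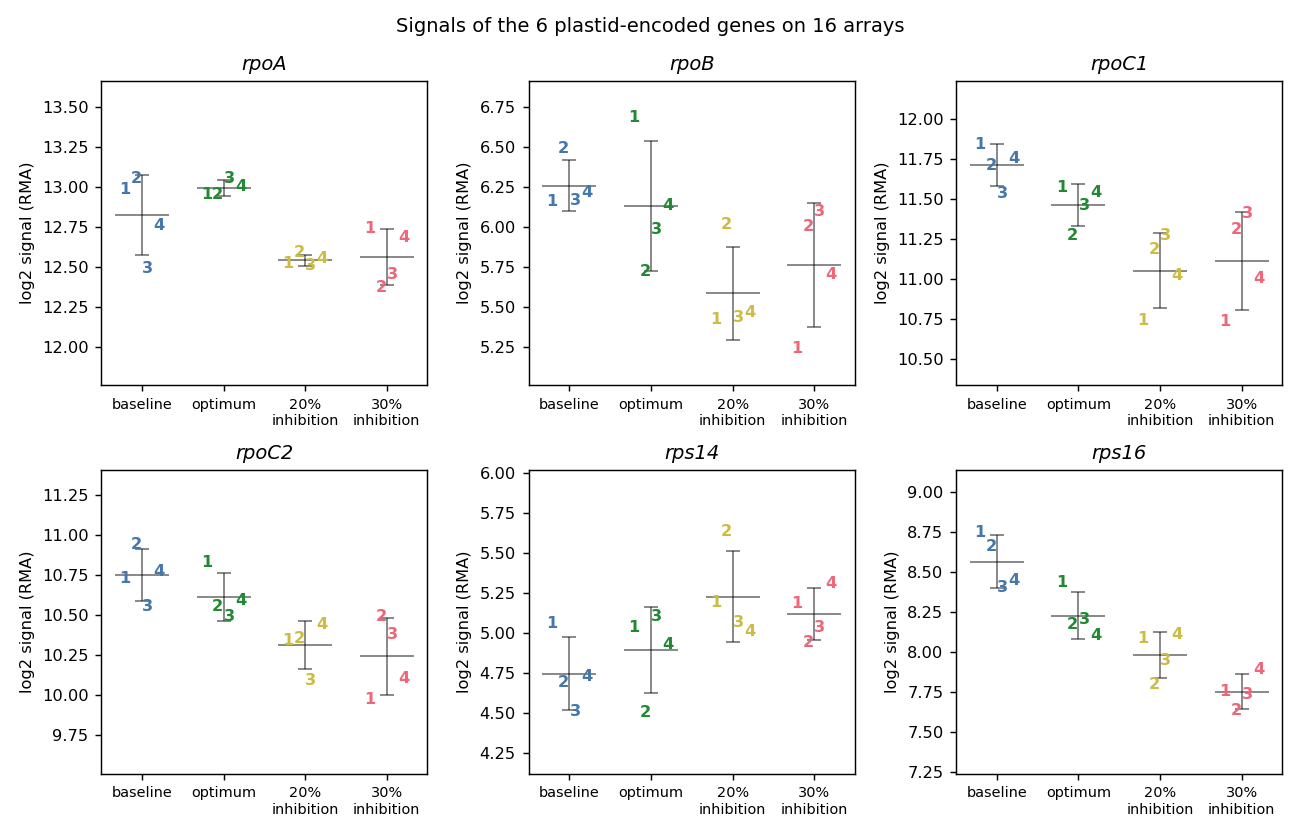
Log2 RMA signal (vertical axes, all spanning the same range of log2 units) of each gene on the 16 arrays by state (horizontal axes). Digits are the replicate numbers of single arrays, the long horizontal bar is the mean of 4 and the whiskers are 1 SD. The rpoB, rpoC1, rpoC2 and rps16 signals of both inhibited states lie below every baseline array, and those of rps14 all lie above its baseline mean of 4.74.

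rpoB encodes the beta subunit, which with beta-prime forms the catalytic core. Its probe set read 6.16, 6.49, 6.17 and 6.22 in baseline replicates 1 to 4 and 6.68, 5.72, 5.98 and 6.14 at the optimum. At 20% inhibition it read 5.43, 6.02, 5.43 and 5.47, and at 30% inhibition 5.24, 6.01, 6.10 and 5.71. Every array of both inhibited states was below the lowest baseline array, whereas the optimum arrays lay on both sides of the baseline. At 20% inhibition rpoB fell 1.59-fold (log2 change −0.67 ± 0.20 SE, adjusted p = 0.0115). At 30% inhibition the log2 change was −0.50 (95% interval −0.92 to −0.07, adjusted p = 0.0564), and at the optimum −0.13 ± 0.20. Its baseline mean lay at the 51.4th percentile of all probe sets, beside the 95.8th for rpoC2, the 98.0th for rpoC1 and the 99.3rd for rpoA, and its SD within a state ran from 0.16 to 0.41. The call at 20% inhibition held in 24 of 24 alternative settings at the threshold of 0.05, but ended at a threshold of 0.01. That at 30% inhibition was made in 9 of 24, with adjusted p from 0.0231 to 0.208.

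rpoC1 and rpoC2 follow rpoB in the same transcription unit. rpoC1, for the beta-prime subunit, read 11.84, 11.71, 11.53 and 11.75 at baseline and 11.57, 11.27, 11.46 and 11.54 at the optimum. At 20% inhibition it read 10.74, 11.18, 11.27 and 11.02, and at 30% inhibition 10.73, 11.31, 11.41 and 11.00. Both inhibited states lay wholly below the baseline, and the optimum lay between with some overlap on each side. rpoC1 fell 1.57-fold at 20% inhibition (−0.65 ± 0.14, adjusted p = 0.000735) and 1.51-fold at 30% (−0.59 ± 0.14, adjusted p = 0.00166). Its change at the optimum was −0.25 (95% interval −0.53 to 0.04, adjusted p = 0.247).

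rpoC2, for the beta-double-prime subunit that bacteria hold fused to beta-prime, read 10.73, 10.94, 10.55 and 10.77 at baseline and 10.83, 10.55, 10.49 and 10.59 at the optimum. At 20% inhibition it read 10.34, 10.35, 10.09 and 10.44, and at 30% inhibition 9.97, 10.49, 10.38 and 10.10. Again neither inhibited state reached the lowest baseline array, while the optimum overlapped with the baseline. rpoC2 fell 1.36-fold at 20% inhibition (−0.44 ± 0.12, adjusted p = 0.00442) and 1.43-fold at 30% (−0.51 ± 0.12, adjusted p = 0.00138), with −0.14 ± 0.12 at the optimum (adjusted p = 0.471). The calls of rpoC1 and rpoC2 against the baseline held in all 24 alternatives at both inhibited states.

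rpoA, for the alpha subunit on which the core assembles, had its highest mean at the optimum. It read 12.98, 13.05, 12.49 and 12.76 at baseline and 12.95, 12.95, 13.05 and 13.00 at the optimum. At 20% inhibition it read 12.52, 12.59, 12.51 and 12.55, and at 30% inhibition 12.74, 12.37, 12.45 and 12.68. The optimum mean was 12.99 ± 0.05 (SD, n = 4). Neither inhibited state overlapped with the optimum, while both overlapped with the baseline, whose replicate 3 was low. Against the optimum rpoA fell 1.36-fold at 20% inhibition (−0.44 ± 0.10, adjusted p = 0.0023) and 1.35-fold at 30% (−0.43 ± 0.10, adjusted p = 0.0028), calls that held in all 24 alternatives.

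Against the baseline rpoA was called lower by a log2 change of −0.27 ± 0.10 at 20% inhibition (adjusted p = 0.039) and −0.26 ± 0.10 at 30% (adjusted p = 0.0498). Both calls are marginal. That at 20% ended with arrays centred on their medians (0.0965) and with only the 8 arrays compared (0.0709). It also ended with the 25S control as a covariate (0.18), where the change was −0.27 ± 0.15. Leaving out baseline replicate 1 (0.124), 2 (0.145) or 4 (0.0509) ended it, as did leaving out replicate 1 (0.0754), 2 (0.0532), 3 (0.0693) or 4 (0.065) of 20% inhibition. That at 30% ended in 17 of 24 alternatives, with adjusted p from 0.00241 to 0.182, and held among the single arrays left out only without baseline replicate 3 or without replicate 1 or 4 of 30% inhibition. The replicate number as a block also ended it (0.0572).

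**Figure D2:**
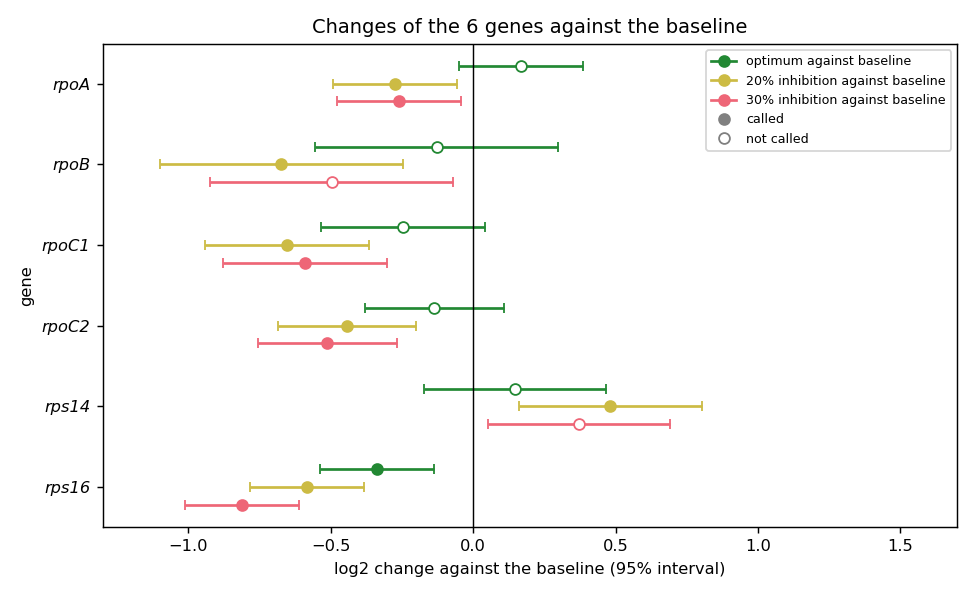
Log2 change against the baseline (horizontal axis) with its 95% interval from limma for each gene (vertical axis) at the optimum, 20% and 30% inhibition; filled points were called at an adjusted p under 0.05 and open points were not. rps14 lies to the right of 0 at all 3 states and rpoA at the optimum, all other points lie to the left, and rps16 runs from −0.34 through −0.58 to −0.81.

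rps16 had the largest fall of the 6 at 30% inhibition and was the one member called at every later state. Its probe set read 8.74, 8.66, 8.40 and 8.45 at baseline and 8.43, 8.17, 8.20 and 8.10 at the optimum. At 20% inhibition it read 8.08, 7.79, 7.95 and 8.11, and at 30% inhibition 7.75, 7.63, 7.73 and 7.89. The means thus descended in the order of the curve, with overlap between each state and the next but none between the baseline and either inhibited state. rps16 fell 1.26-fold at the optimum (−0.34 ± 0.09, adjusted p = 0.0208), by −0.58 ± 0.09 log2 units at 20% inhibition (adjusted p = 6.9e-05) and 1.76-fold at 30% (−0.81 ± 0.09, adjusted p = 1.8e-06). From the optimum to 30% inhibition it fell by 0.47 on the log2 scale (adjusted p = 0.000626). The step from 20% to 30% inhibition, −0.23 (95% interval −0.43 to −0.03), had an unadjusted p of 0.0272 and did not pass after adjustment (0.172).

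The fall of rps16 at both inhibited states held in 24 of 24 alternatives. Its call at the optimum ended without baseline replicate 1 (adjusted p = 0.0775) or 2 (0.0654) and without optimum replicate 2 (0.0558) or 4 (0.0736), over a range from 0.00392 to 0.0775 in all alternatives.

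rps14 moved the other way. It read 5.06, 4.69, 4.51 and 4.72 at baseline and 5.03, 4.50, 5.10 and 4.93 at the optimum. At 20% inhibition it read 5.19, 5.63, 5.07 and 5.01, and at 30% inhibition 5.18, 4.94, 5.03 and 5.31. The baseline array of replicate 1 reached into the range of both inhibited states, so the groups overlapped. rps14 rose 1.40-fold at 20% inhibition (0.48 ± 0.15, adjusted p = 0.0157), and its change at 30% was 0.37 (95% interval 0.05 to 0.69, adjusted p = 0.0571). The signal was dim, with a baseline mean at the 27.7th percentile of all probe sets, and RMA compresses changes close to background. The call at 20% ended without baseline replicate 3 (0.0559), without replicate 2 of 20% inhibition (0.0632, change 0.34) and with the 25S control as a covariate (0.11, change 0.46).

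rps14 was the 1 probe set called higher at 20% inhibition among the 69 of chloroplast-encoded genes. Its partners of the same transcription unit fell there: psaA, which with psaB encodes the reaction centre of photosystem I, by −1.11 (adjusted p = 0.00513) and psaB by −0.36 (adjusted p = 0.00402). At 30% inhibition psaA stood at −0.73 and psaB at −0.20, and neither passed (0.0553 and 0.0963). Baseline means were 12.72 for psaA and 13.9 for psaB but 4.74 for rps14, whose dim signal limits this contrast.

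The remaining comparisons set the inhibited states against the optimum and against each other. From the optimum to 20% inhibition 5 of 6 were called lower, against 22.9% lower and 41.7% called of all probe sets: rpoA as given, rpoB (−0.54 ± 0.20, adjusted p = 0.0394), rpoC1 (−0.41 ± 0.14, 0.0239), rpoC2 (−0.31 ± 0.12, 0.0423) and rps16 (−0.24 ± 0.09, 0.0476). Apart from rpoA, each of these calls ended without some single arrays, and those of rpoB, rpoC2 and rps16 also with arrays centred on their medians or with quantile normalisation repeated. The count was 1 without optimum replicate 1, 2 without optimum replicate 4 or replicate 1 or 3 of 20% inhibition, and 3 without baseline replicate 4, optimum replicate 2, or replicate 2 or 4 of 20% inhibition. Over all single arrays left out, 8363 to 9473 of the 22746 probe sets were called. With arrays centred on their medians the members called were 2 lower, rpoA and rpoC1, with rps14 now higher (0.40, adjusted p = 0.0411). There 11487 of the 22746 probe sets were called.

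From the optimum to 30% inhibition 3 of 6 were called lower, rpoA, rpoC2 (−0.38 ± 0.12, adjusted p = 0.0146) and rps16, against 22.6% lower and 41.2% called of all. The rpoC2 call ended without optimum replicate 1 (0.0542) or replicate 1 of 30% inhibition (0.057). Between 20% and 30% inhibition limma called 0 of the 6 at an adjusted p under 0.05, beside 7.16% of all probe sets, and 1 of 6, rps16, had an unadjusted p under 0.05. For the other 5 the change between these states lay between −0.11 and 0.18, within intervals that all include 0.

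**Figure D3:**
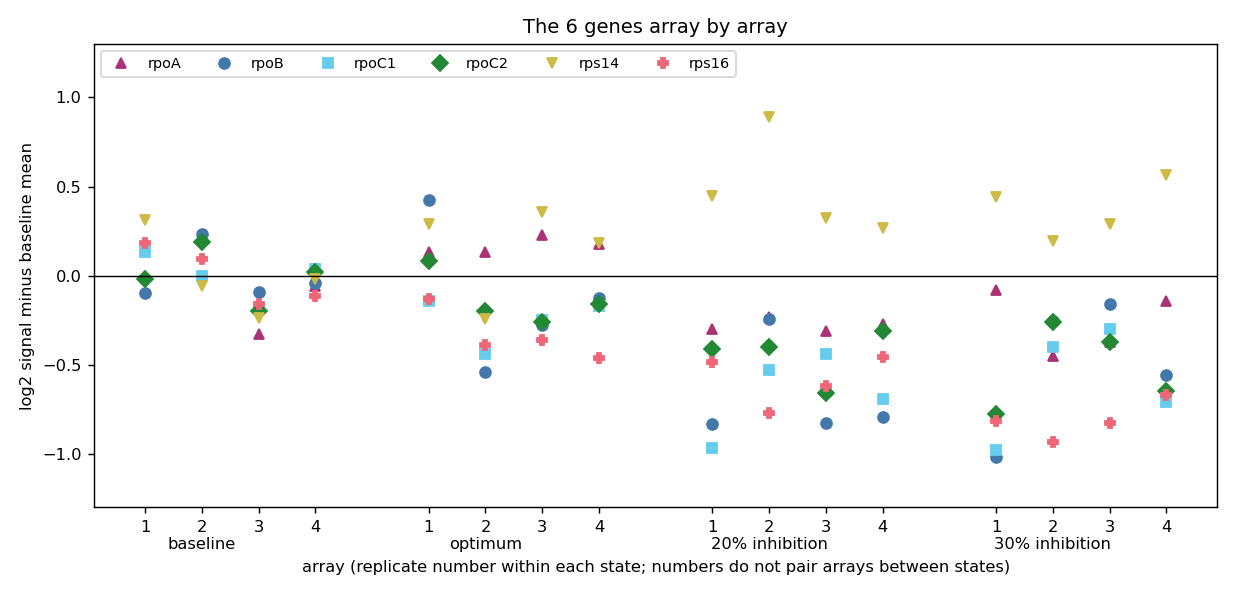
Log2 signal of each gene minus its own mean over the 4 baseline arrays (vertical axis) on every array, by state and replicate number (horizontal axis). At 30% inhibition the symbols of rpoB, rpoC1 and rpoC2 are lowest in replicates 1 and 4, where those of rpoA and rps14 are highest.

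At 30% inhibition the genes of the rpoB unit ordered the arrays in a like way, which they did not at 20% inhibition, where replicate 3 was the highest array of rpoC1 and the lowest of rpoC2. At 30% inhibition rpoB, rpoC1 and rpoC2 were all lowest in replicate 1 and next lowest in replicate 4, by up to 0.86, 0.68 and 0.52 log2 units below their highest array. rpoA and rps14 had their highest 2 arrays in those same replicates. At 20% inhibition replicate 2 was the highest array of rpoB and rps14 and the lowest of rps16. The 25S control was highest in replicate 3 (11.4) and lowest in replicate 4 (8.67) of 30% inhibition. In replicate 3 of 20% inhibition, where it stood at the baseline level, rpoB (5.43), rpoC1 (11.27), rpoC2 (10.09) and rps16 (7.95) were below every baseline array, and rpoA (12.51) was above the lowest baseline array (12.49). That is 1 array, and the fit with array weights gave it the lowest weight of all (0.33).

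Whether a member changed by another amount than rpoB was tested on the difference of the pair within each array, with exact 2-sided permutation tests over 4 against 4 arrays, for 5 members and 3 comparisons with the baseline. The smallest p that 70 assignments allow is 0.0286, and p-values were adjusted over the 15 tests. The difference rps14 minus rpoB was larger by 1.15 ± 0.16 log2 units at 20% inhibition, from −1.52 ± 0.30 to −0.36 ± 0.09 (SD, n = 4), and by 0.87 ± 0.29 at 30%. In both cases all 4 arrays lay above every baseline array and the exact p was the smallest possible, but the adjusted p of 0.214 did not pass. To pass, most of the 15 tests would have had to reach that smallest p, so rps14 alone could not pass whatever its difference. For rpoA minus rpoB the difference at 20% inhibition was 0.40 ± 0.16 (exact p = 0.0571, adjusted p = 0.286). rpoC1 minus rpoB differed by between −0.12 and 0.02 and rpoC2 minus rpoB by between −0.02 and 0.23 over the 3 states, and rps16 minus rpoB by −0.32 ± 0.24 at 30% inhibition (exact p = 0.229). None of the 15 passed, which the smallest possible p all but fixed in advance, and these tests do not show that the members changed alike.

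Of the genes next to the members on the chloroplast genome, some were called lower and others did not pass. Over all probe sets 24.9% were called lower against the baseline at 20% inhibition and 24.9% at 30%. rpoC2 is followed by rps2 and by atpI, atpH, atpF and atpA of the ATP synthase. All 5 fell at 20% inhibition (median −0.66) and 4 of 5 at 30% (median −0.53), with atpH at −0.66 ± 0.19 the largest of these falls and atpI, at −0.42, not passing (adjusted p = 0.117). On the far side of rpoB the next measured gene, petN of the cytochrome b6f complex, stood at 0.20 and 0.51 and did not pass (adjusted p = 0.605 and 0.159). Of 12 genes listed around rpoA 10 had a probe set of their own; 7 fell at 20% inhibition and 6 at 30%. The 6 at 30% were all ribosomal protein genes of its cluster, rpl36, rpl14, rpl16, rps3, rpl22 and rps19, with rpl22 falling most (−0.63 ± 0.07, adjusted p = 5.3e-07), whereas petB, petD, psbB and psbH on its other side did not pass at 30% (−0.02, 0.45, 0.09 and −0.02). Beside rps16, matK, which encodes a maturase for group II introns, fell by 0.30 at 20% inhibition and by 0.19 at 30% (adjusted p = 0.00218 and 0.0431), and psbK did not pass at either (−0.38 and −0.30).

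**Figure D4:**
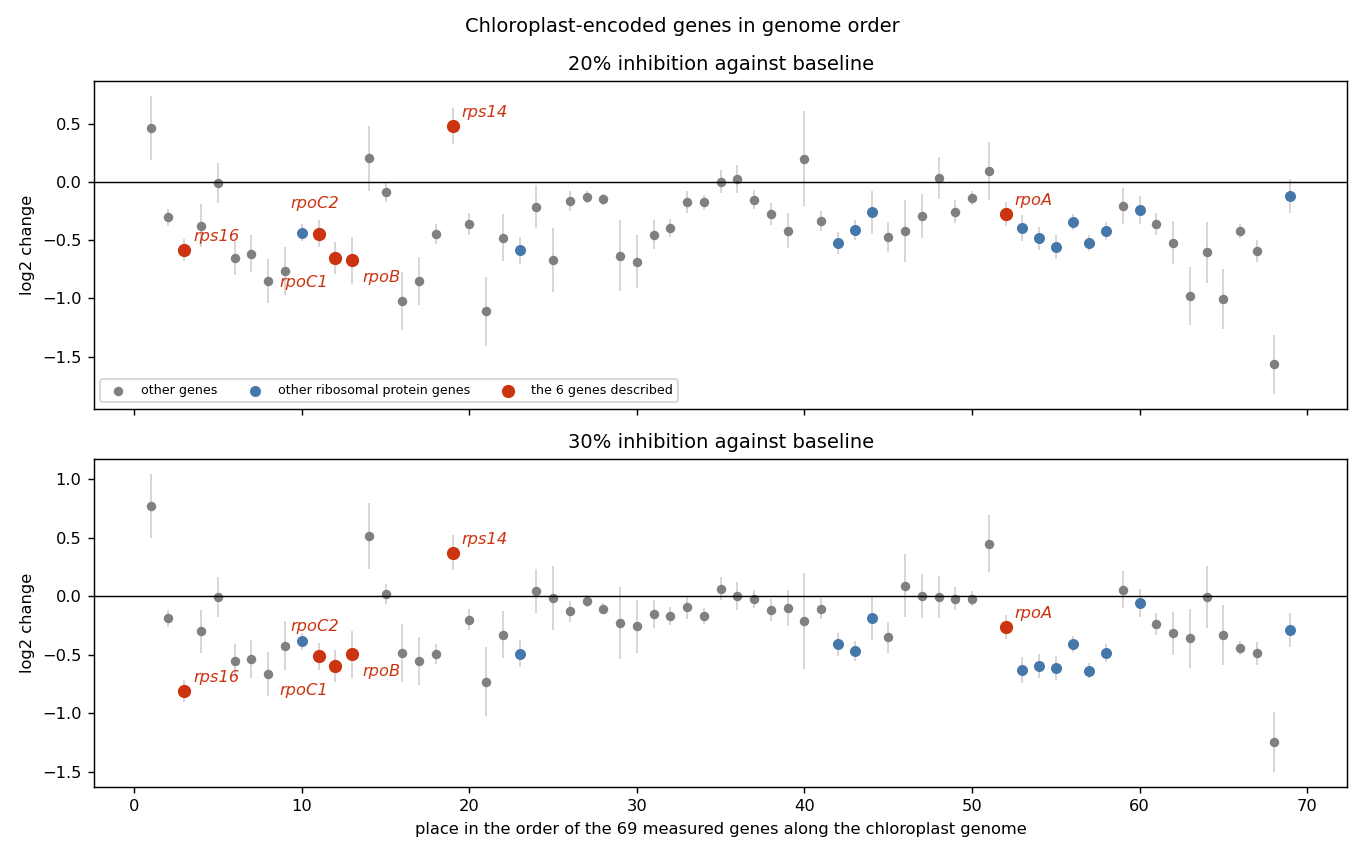
Log2 change against the baseline (vertical axes) at 20% inhibition (upper panel) and 30% inhibition (lower panel) of the 69 chloroplast-encoded genes with a probe set of their own, by place in genome order (horizontal axis); bars are 1 SE. Most points lie below 0, among them rps2 and the ATP synthase genes on the rpoC2 side of the rpoB unit and the ribosomal cluster next to rpoA, at −0.34 to −0.85 at 20% inhibition. rps14 lies above 0 in both panels.

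Other ribosomal protein genes of the chloroplast behaved like rps16 rather than rps14 in direction. Of 13 with a probe set of their own, 10 fell and 0 rose at 20% inhibition (median −0.42, range −0.59 to −0.12), and 10 fell and 0 rose at 30% (median −0.47), against 24.9% of all probe sets lower at either state. The members not called were rpl20, rpl32 and rps15, at −0.26, −0.24 and −0.12 at 20% inhibition. Without any 1 array the count of falls was 10 to 11 at 20% and 10 at 30%. rps16 itself, with −0.81 at 30%, lay outside their range of −0.63 to −0.06. A further 5 ribosomal probe sets, shared by the repeat copies of rpl2, rpl23, rps7 and rps12, had 2 falls and 0 rises at each inhibited state.

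Nuclear genes for the same machinery had smaller values, as far as they were measured. Of 34 listed nuclear-encoded plastid ribosomal proteins 9 probe sets were named, and their changes ran from −0.20 to 0.25 at 20% inhibition (median 0.04) and from −0.19 to 0.18 at 30% (median 0.04). At 20% inhibition 1 rose, RPL19 (AT4G17560; 0.25 ± 0.07, adjusted p = 0.00817), and 1 fell, RPS10 (AT3G13120; −0.20 ± 0.06, 0.0168). At 30% RPS10 (−0.19, adjusted p = 0.0205) and RPS6 (AT1G64510; −0.18, 0.0169) fell. Without baseline replicate 3 or replicate 4 of 20% inhibition, with arrays centred on their medians or with the 25S control as a covariate, 0 falls were called at 20%. The difference between nuclear and plastid lists was not tested. Of 3 phage-type polymerases 1 was measured, RPOTmp (AT5G15700), at −0.06 ± 0.07 at 20% and 0.05 ± 0.07 at 30% inhibition, neither of which passed (adjusted p = 0.504 and 0.622). From the optimum to 30% inhibition RPOTmp was called higher, by a log2 change of 0.24. The 6 sigma factors and 13 polymerase-associated proteins on the lists had no probe set named in the annotation used and were not analysed here.

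**Figure D5:**
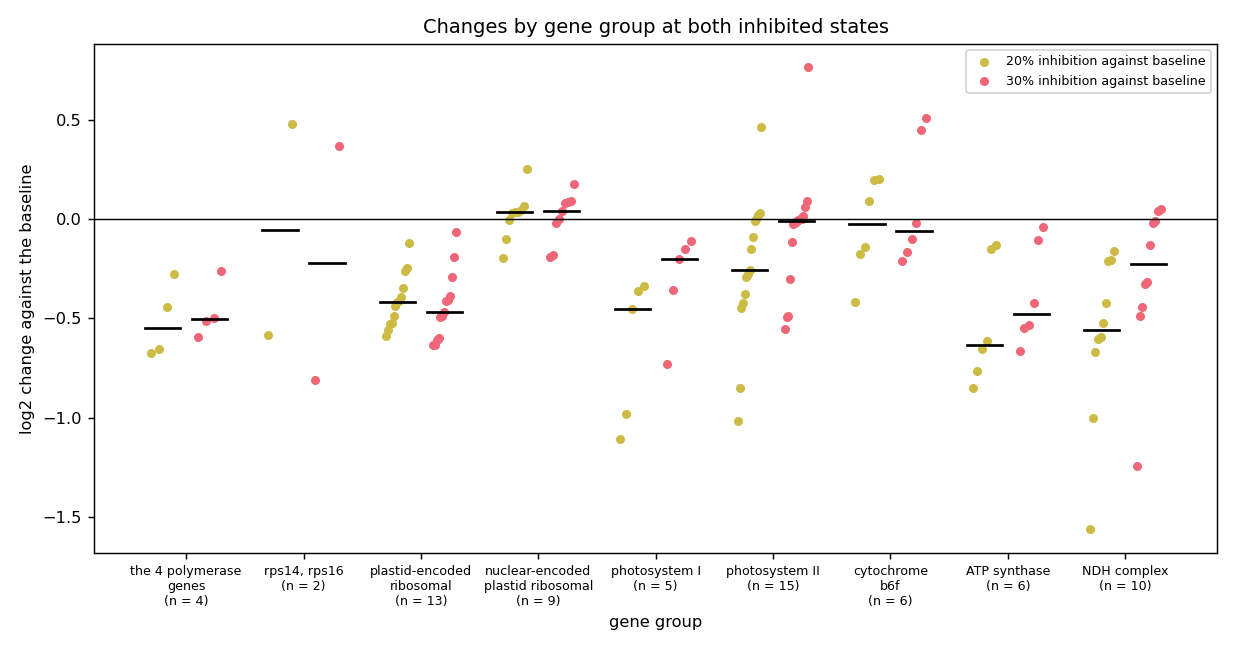
Log2 change against the baseline (vertical axis) at 20% and 30% inhibition by gene group (horizontal axis, with the number of probe sets); points are probe sets and black bars are medians. The 4 polymerase genes and the 13 plastid-encoded ribosomal genes other than rps14 and rps16 lie below 0 at both states, rps14 lies above 0, and the nuclear-encoded plastid ribosomal genes lie around 0.

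Among the 63 other chloroplast-encoded genes, 37 fell and 0 rose at 20% inhibition (median −0.39), and 20 fell and 1 rose at 30% (median −0.21), beside 24.9% of all probe sets lower at either state. By rank from the lowest change of the 69, rpoB stood 10th, rpoC1 13th, rps16 19th, rpoC2 29th, rpoA 46th and rps14 69th at 20% inhibition. At 30% rps16 stood 2nd, behind ndhH (−1.24 ± 0.25), a subunit of the NADH dehydrogenase-like complex, rpoC1 9th, rpoC2 13th, rpoB 14th, rpoA 33rd and rps14 66th. The 5 photosystem I genes were all called lower at 20% inhibition (median −0.45), or 1 of the 5 with the 25S control as a covariate. At 30% they lay between −0.73 and −0.11, where psaA came nearest to passing. Falls were called at 20% and at 30% inhibition for 5 and 2 of 15 photosystem II genes, 5 and 3 of 6 ATP synthase genes, and 5 and 3 of 10 genes of the NADH dehydrogenase-like complex. Of 6 genes of the cytochrome b6f complex 2 fell at 20%. At 30% inhibition the shares of the photosystem II and NADH dehydrogenase-like genes were thus near or below that of all probe sets. The rise at 30% was that of psbA, for the D1 protein of photosystem II (0.77 ± 0.27, adjusted p = 0.0308). Without baseline replicate 3, or without replicate 1, 2 or 4 of 30% inhibition, or with the 25S control as a covariate, 0 rises were called there, and without baseline replicate 1 there were 3. The count of falls at 20% inhibition ran from 30 to 47 without any 1 array, and with the 25S control as a covariate it was 20. Of all 22746 probe sets 5295 to 5781 and 4511 were called lower in these fits.

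Signals of transcripts encoded in the mitochondrion, whose messages also lack stable poly(A) tails, moved the other way. Of 18 probe sets 15 rose at each inhibited state. The 18 stand for fewer genes, as several are of nad1 and a pair of nad5. Those not called were of nad1 and nad2, while other nad1 probe sets rose. Over all probe sets 18.9% were called higher at 20% inhibition and 4394 of 22746 at 30%. The largest rise was that of nad6, a subunit of respiratory complex I, with 4.40 ± 0.10 at 30%. The 25S control was higher in the same arrays, except in replicate 3 of 20% inhibition, where the median signal of the mitochondrial probe sets was 7.35, beside 7.45 to 7.74 in the other 3 arrays and 4.98 to 5.01 at baseline.

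The patterns most like each member were sought among 13507 other probe sets with a single gene, as the smallest root mean square difference over the 16 arrays after each probe set's own baseline mean was subtracted. For rpoB the nearest was atpI, at 0.12 log2 units, ahead of AT1G01320 (0.21) and atpF (0.22). For rpoC1 they were atpA (0.13), AT3G14410 (0.14) and rps4 (0.14). Both lists thus hold genes of the ATP synthase cluster that follows rpoC2. The nearest to rpoC2 were nuclear, AT5G59210 (0.13), AT1G64710 (0.13) and XEG113 (0.14), an arabinosyltransferase of cell wall proteins. For rpoA they were AT5G64030 (0.12), AT3G02360 (0.13) and AT3G49050 (0.13), and for rps14 AT4G10000 (0.17), AT1G73470 (0.18) and AT4G19440 (0.18). rps16 was nearest to HCF101 (0.13), a nuclear gene for a chloroplast protein that carries iron-sulfur clusters to photosystem I, with AT2G03390 (0.13) and AT1G15060 (0.14) next. Among the members themselves the distances within the rpoB unit were 0.22 to 0.23, those from rpoA to the unit 0.30 to 0.43 and those from rps14 to the other 5 0.52 to 0.86. These distances are a description over the same 16 arrays, with no test.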

How the data were processed

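The deposited values were log2 signals per probe set, made by the authors with RMA per the submitters' processing notes, which name RMA and limma without versions. RMA corrects background, gives every array one distribution and combines the probes of each set, so a value is relative to the rest of its array. The labels cite the standard Affymetrix labelling protocol, in which priming on poly(A) favours RNA with such tails. Per the labels, 6 µg of total RNA per array was labelled with biotin. No scanner files were used here, so another background correction could not be tried. Of 22810 probe sets 64 were controls and 22746 were tested; the annotation assigned 13513 to 1 gene, 503 to several and 8730 to none. Genes were placed in the chloroplast genome through RefSeq's table for TAIR10.1, used for names and gene order only; mitochondrial genes were matched by symbol.

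One linear model of 4 state means was fitted to 16 arrays with limma 3.58.1 in R 4.3.3 (12 residual and 4.21 prior degrees of freedom), each comparison 2-sided, checked on simulated data. Exact permutation tests used scipy 1.17.1. The arrays' number limits the precision. Members, lists and tests were chosen with earlier results of these data known. Named genes were the 6 members, the 3 most like each, and, from each list, the largest called rise and fall at 30% inhibition; other genes named are list members given for their place beside a member or as exceptions, chosen after their values were seen. Replicate numbers were checked for pairing: deviations from state means correlated between same-numbered arrays at −0.359 to 0.311 (median 0.00648, 24 pairs). No pairing was evident and arrays were treated as unpaired, although the labels do not say whether a plant gave leaves at several states. Alternatives were only the 8 arrays compared, an intensity-trended prior, leaving out the dimmest probe sets, median centring, repeated quantile normalisation, array weights, the replicate block, the 25S control as a covariate, leaving out each array, and a threshold of 0.01. Counts of alternatives out of 24 keep the threshold of 0.05 and include leaving out arrays of states not compared.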

Additional observations from a re-analysis of the deposited data

Results flagged for a closer look

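One value lay far from the others of its state by Dixon's test at the 95% level, among 28 groups of 4 arrays examined, of which chance flags about 1 in 20. It was the rpoB signal in replicate 2 of 20% inhibition, 6.02, beside 5.43, 5.43 and 5.47 in the other 3 arrays. The same array was the highest of rps14 (5.63) and the lowest of rps16 (7.79) in that state. Without it the change of rpoB against the baseline was −0.82, beside −0.67 with it.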

How the results depend on the processing

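Counts of the 6 genes called kept within 1.5 times under most alternatives. The count at the optimum went from 1 to 0 at a threshold of 0.01, and from 0 to 1 over single arrays left out. At 20% inhibition against the baseline it went from 6 to 3 at 0.01 (4 to 6 over single arrays left out). At 30% it was 4, 3 to 5 over single arrays left out and up to 6 with an intensity-trended prior, where 10019 of all 22746 probe sets were called. Single arrays left out gave 2710 to 4479 probe sets called at the optimum, 9126 to 10040 at 20% and 9301 to 10528 at 30%. From the optimum to 20% inhibition it went from 5 to 3 with only the 8 arrays compared and 3 with arrays centred on medians. It was 2 with repeated quantile normalisation, with array weights or with the 25S control as a covariate. A threshold of 0.01 gave 1, and single arrays left out gave 1 to 5. Of all 22746 probe sets 8221, 11487, 9041, 9456 and 6931 were called in the first 5 of these settings. Apart from the fit of only the 8 arrays, members were called there at a share near that of the array. At 0.01 the share of all probe sets was 29.7%, and single arrays left out gave 8363 to 9473 of 22746. From the optimum to 30% it ran from 2 to 4, and between the inhibited states it stayed at 0. With single arrays left out, 8498 to 9868 and 1178 to 2153 of all 22746 probe sets were called in these comparisons. No change called for a member reversed direction in any alternative.

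With the replicate number as a block the counts were 1, 6 and 3 against the baseline, 4 and 3 against the optimum, and 0 between the inhibited states. In the same order, 3568, 9815, 9901, 9238, 9173 and 1440 of all 22746 probe sets were called. The block ended the calls of rpoA at 30% inhibition against the baseline (0.0572) and of rpoB from the optimum to 20% inhibition (0.0597). Pairing by number was not evident, as only 5 of 16 arrays correlated best with their own number, but this check cannot exclude it. rps14 was not tested where the dimmest probe sets were left out, because it was among them. With an array left out, 3 arrays against 4 cannot reach an exact p below 0.0571 for differences from rpoB, so those tests say nothing of stability. Dim signals limit what can be said of rps14 and rpoB.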
